A study of Mus musculus with 2 samples.

Results

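Genes of xenobiotic metabolism were compared between small intestinal organoids of 2 genotypes. They comprised enzymes of the cytochrome P450 subfamilies Cyp2c, Cyp2d and Cyp3a, the nuclear receptor CAR (Nr1i3) and the drug efflux pump P-glycoprotein (Abcb1a). The 10 genes were taken by symbol from the deposited count tables, which hold the same 1448 genes, all typed as mRNA, for both libraries. Every gene in the tables whose symbol starts with Cyp2c, Cyp2d or Cyp3a is among them, 8 in all, whereas Nr1i3 and Abcb1a were picked singly. AdipKO organoids were grown from Adipfl/flpVilli-CreT mice, whose adiponectin gene (Adipoq) carries loxP sites and whose Cre recombinase is driven by the villin promoter of gut epithelial cells. WT organoids were grown from Adipfl/fl mice, which share the floxed gene and lack the Cre. Both were cultured from scraped, EDTA-released crypts in Matrigel with EGF, Noggin and R-spondin, which favour epithelial growth. There was 1 RNA library per genotype, and neither the age nor the number of mice behind a library was stated.

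Cytochrome P450 enzymes are haem proteins of the endoplasmic reticulum that oxidise drugs, plant compounds, steroids, fatty acids and bile acids. In the small intestine they act in absorptive enterocytes, where P-glycoprotein in the apical membrane pumps many of the same compounds back into the lumen. CAR and the related receptor PXR (Nr1i2) pair with the retinoid X receptor at repeats of a short hormone-response half-site and are known to induce P450, conjugation and efflux genes. Other receptors of this class, HNF4 among them, maintain P450 expression in liver and gut.

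The tables do not cover the whole transcriptome. None of their genes had a log2 ratio of counts between -1.04 and 0.96, so each differed by about 2-fold or more, and a gene outside the tables was not analysed here. The direction of a listed gene is therefore open to reading, whereas the fact that it differed is not. Over all listed genes the counts add to 689004.63 for AdipKO and 802994.76 for WT, sums of a selection that do not give the depth. Adipoq was not among the listed genes, so the counts give no check on the genotype of either library, which rests on its label. The paper shows an adiponectin immunoblot of AdipKO and WT organoids. The paper reports Lgr5, Tnfrsf19, Mycl, Lyz1, Ascl2 and Olfm4 as higher in AdipKO organoids, by RNA-seq and qRT-PCR. In the deposited counts each of these genes was lower in the library labelled AdipKO. Lgr5, for example, had 3127 counts in AdipKO, against 7858 in WT. Whether the libraries labelled AdipKO and WT were exchanged could not be settled from these tables, and an exchange would turn every direction given below. With 1 library per genotype no test was possible and no p-value is given. The intervals below are exact 95% intervals of a ratio of 2 counts and cover counting error only, not differences between cultures or mice. In these bulk samples, a change in the number of cells that express a gene and a change in RNA per cell cannot be told apart.

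All 10 genes were higher in the library labelled AdipKO. With a pseudocount of 1 added to each count, 10 of 10 were at least 2-fold higher and 0 lower. Their log2 ratios ran from 1.18 to 3, and the median was 1.55. Among all 1448 listed genes, 35.3% were at least 2-fold higher and 62.2% at least 2-fold lower, and the median log2 ratio was -1.15. The 10 genes were proposed with results of these data known, so their shared direction is a description. Counts spanned 3 orders of size (see the plot of read counts by gene), and 5 of the 10 had fewer than 50 counts in the AdipKO library.

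**Figure D1:**
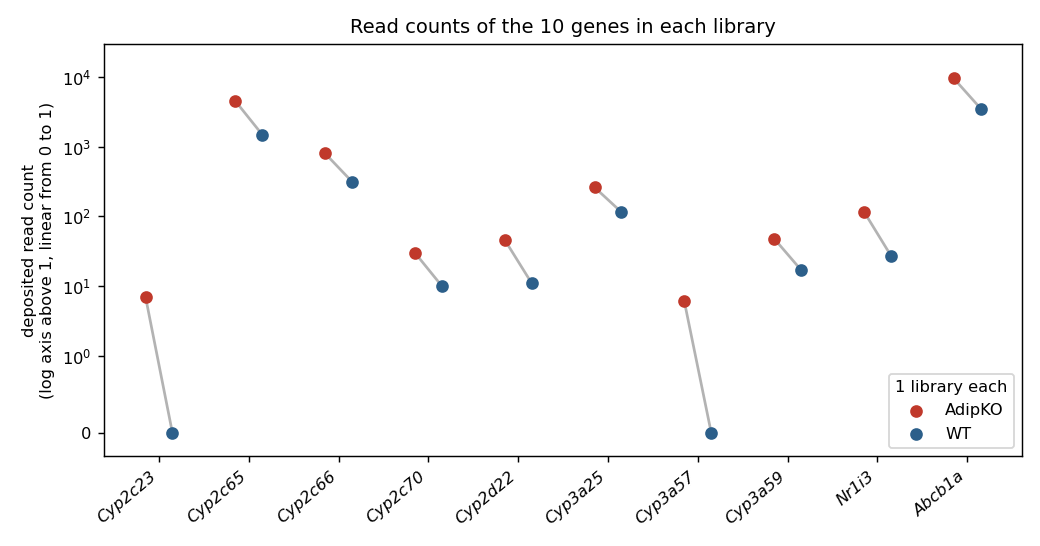
Deposited read counts of the 10 genes in the AdipKO library (left point of each pair, red) and the WT library (right point, blue), 1 library each, on a log axis that is linear from 0 to 1. The AdipKO point lies above the WT point for every gene, from 6 against 0 counts for Cyp3a57 to 9606.09 against 3545.42 for Abcb1a.

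Promoter sequences are shown for the best counted pair of paralogs, Cyp2c65 and Cyp2c66, and for the 3 Cyp3a genes, because these genes lie in tandem clusters and share reads or long stretches of sequence. Each run is the 250 bases before the start used for that gene (RefSeq, GRCm38.p6, the assembly behind mm10), written 5′ to 3′ on the gene's strand. For the 3 Cyp3a genes this start lies inside the gene span given below, so the end of each run overlaps that span. Capitals mark the letters of motifs that were searched on both strands, at any distance from the start. They are AGGTCA (a nuclear receptor half-site) or its reverse complement, CAAAGTCCA (an HNF4A site) and TATAAA (the letters of a TATA box). Only exact letters were searched, so variants of these motifs are not marked.

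Cyp2c65, chr19:39060756-39061005, + strand: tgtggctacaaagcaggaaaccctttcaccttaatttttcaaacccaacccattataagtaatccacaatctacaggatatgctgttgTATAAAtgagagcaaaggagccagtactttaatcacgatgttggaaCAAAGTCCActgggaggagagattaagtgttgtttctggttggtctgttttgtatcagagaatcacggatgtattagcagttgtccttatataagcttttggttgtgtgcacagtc

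Cyp2c66, chr19:39113648-39113897, + strand: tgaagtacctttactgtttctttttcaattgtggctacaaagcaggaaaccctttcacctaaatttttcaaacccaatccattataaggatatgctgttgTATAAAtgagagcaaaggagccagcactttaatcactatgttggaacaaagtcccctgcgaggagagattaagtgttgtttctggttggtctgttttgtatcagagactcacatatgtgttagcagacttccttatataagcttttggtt

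Cyp3a25, chr5:146009619-146009868, - strand: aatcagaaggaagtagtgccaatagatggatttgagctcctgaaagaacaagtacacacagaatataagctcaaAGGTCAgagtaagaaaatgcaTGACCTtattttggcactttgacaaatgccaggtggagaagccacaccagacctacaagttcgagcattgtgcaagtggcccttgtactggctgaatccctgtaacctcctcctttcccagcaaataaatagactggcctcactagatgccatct

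Cyp3a57, chr5:145345019-145345268, + strand: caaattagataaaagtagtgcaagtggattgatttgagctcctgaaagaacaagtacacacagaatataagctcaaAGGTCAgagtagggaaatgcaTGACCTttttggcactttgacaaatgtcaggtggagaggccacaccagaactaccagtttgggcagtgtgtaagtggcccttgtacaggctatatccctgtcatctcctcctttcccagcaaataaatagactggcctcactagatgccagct

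Cyp3a59, chr5:146079008-146079257, + strand: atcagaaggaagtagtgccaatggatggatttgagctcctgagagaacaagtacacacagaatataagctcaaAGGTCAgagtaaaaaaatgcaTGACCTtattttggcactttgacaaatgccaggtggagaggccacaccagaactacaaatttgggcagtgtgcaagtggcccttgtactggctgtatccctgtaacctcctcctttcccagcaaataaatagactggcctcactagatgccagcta

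The promoters of Cyp2c65 and Cyp2c66 were identical at 208 of 221 aligned bases (94.1%). Both held TATAAA, which 13.0% of 27025 mouse promoters of the same length hold. Counted back from the gene start, it stood from base -162 to base -157 in Cyp2c65 and from base -150 to base -145 in Cyp2c66. Whether either stretch serves as a core promoter element was not tested. The HNF4A letters, present in 0.381% of all promoters, stood in the Cyp2c65 promoter from base -116 to base -108. The aligned stretch of the Cyp2c66 promoter differed from them by 1 base, A9C, with positions counted from the first letter of the site in Cyp2c65. Cyp2c70 was the other gene of the set with these letters, from base -64 to base -56. It also held AGGTCA and the reverse complement of TATAAA, the latter from base -29 to base -24.

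The Cyp3a promoters were alike over almost their whole length, with 95.6% identity between Cyp3a25 and Cyp3a59, 90.3% between Cyp3a25 and Cyp3a57 and 92.3% between Cyp3a57 and Cyp3a59. Each held AGGTCA and, 15 bases further on, its reverse complement TGACCT. A match to AGGTCA was found in 13.8% of all promoters. The arrangement with 15 bases between the half-sites was looked for after it had been seen in these genes, and 3 of 27025 promoters held it, which were those of Cyp3a25, Cyp3a57 and Cyp3a59. The variant half-site AGTTCA stood in the Abcb1a promoter and in 11.9% of all promoters. Of the 8 genes with a promoter in the table, 4 held AGGTCA (Cyp2c70 and the 3 Cyp3a genes). None of the 8 held 2 copies of AGGTCA spaced by 4 bases (0.0111% of all promoters), GTTAAT (an HNF1 half-site, 6.52%), TTTATG (a CDX2 site, 11.1%) or TGACNNNGC (an antioxidant response core, 10.1%). No match overlapped another. These matches are descriptions of letters and not of binding.

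The Cyp2c enzymes carried most of the P450 counts. Cyp2c65 and Cyp2c66 are mouse enzymes known from the gut, and they lie next to each other on chromosome 19, from 39061006 to 39093948 and from 39113898 to 39186756 (GRCm38.p6), with 9 exons each in the main transcript. Cyp2c65 (gene ID 72303) had 4550.73 counts in the AdipKO library, against 1494.94 in the WT library, and was 3.04-fold higher (2.87 to 3.23). Cyp2c66 (69888), with 802.27 AdipKO counts against 315.06 WT counts, was 2.55-fold higher (2.23 to 2.91). By count, Cyp2c65 was 28th of the 1448 listed genes in the AdipKO library and 89th in the WT library.

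The decimals of both genes come from reads that the counting divided between genes. Their transcripts were 96.2% identical over 1614 aligned bases, and 143 windows of 100 bases, the read length, were the same in both. These windows were 7.82% of those of Cyp2c65 and 9.34% of those of Cyp2c66. The counts of the pair added to whole numbers in both libraries (within 0.005), 5353 in AdipKO and 1810 in WT, and none of the other listed genes with fractional counts completed either gene in this way. The pair together was 2.96-fold higher (2.80 to 3.12), a value that the division of reads between them does not touch. Cyp2c65 took 85.0% of the pair's counts in AdipKO (84.0% to 86.0%) and 82.6% in WT (80.8% to 84.3%), by exact binomial intervals. The fold of Cyp2c65 was 1.20 times that of Cyp2c66 (1.03 to 1.38). This interval excludes 1 but treats reads as independent, and the value rests on how shared reads were assigned.

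The other Cyp2c genes were thinly counted. Cyp2c70 (226105), which makes muricholic acids from chenodeoxycholic acid in mouse liver, had 30 counts in AdipKO, against 10 in WT, and was 3-fold higher (1.43 to 6.88). Cyp2c23 (226143), an arachidonic acid epoxygenase best known from the kidney and formerly named Cyp2c44, had 7 counts in AdipKO and 0 in WT. With the 0 set to 3 counts in that library, Cyp2c23 is 2.33-fold higher, and its exact interval starts lower, at 1.44. Both lie on chromosome 19 as well, Cyp2c70 from 40153361 to 40187286 and Cyp2c23 from 44005022 to 44029256, and neither shared a 100-base window with another gene. Summed over the 4 genes, Cyp2c had 5390 counts in AdipKO, against 1820 in WT, and was 2.96-fold higher (2.81 to 3.12). Of the 15 Cyp2c genes searched by name, 4 were listed.

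Cyp2d22 (56448) was the listed member of its subfamily, of 9 searched by name. It is the mouse enzyme often set beside human CYP2D6, and it lies on chromosome 15 from 82370527 to 82380260. It had 46 counts in AdipKO, against 11 in WT, and was 4.18-fold higher with a wide interval (2.13 to 8.95). A share of 0.225% of its windows matched Cyp2d26, which was not listed, and its counts were whole.

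The Cyp3a enzymes, the P450 subfamily that oxidises the widest range of drugs, had the lowest summed ratio of the 3 subfamilies. Cyp3a25 (56388) had 262 counts in AdipKO, against 115 in WT, and was 2.28-fold higher (1.82 to 2.86), the smallest of the ratios with counts in both libraries. Cyp3a59 (100041449), with 48 AdipKO counts against 17 WT counts, was 2.82-fold higher (1.59 to 5.24). Cyp3a57 (622127) had 6 counts in AdipKO and 0 in WT. It is 2-fold higher with the 0 set to 3 counts, and its exact interval starts lower, at 1.18. Together they had 316 counts in AdipKO, against 132 in WT, 2.39-fold higher (1.95 to 2.96), and 3 of 9 Cyp3a genes searched by name were listed.

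All 3 lie on chromosome 5, Cyp3a57 from 145345149 to 145390926, Cyp3a25 from 145977192 to 146009644 and Cyp3a59 from 146079208 to 146114978, with 13 exons each. The transcripts of Cyp3a25 and Cyp3a59 were 97.0% identical, and 6.05% of the windows of Cyp3a25 and 5.61% of those of Cyp3a59 matched the other gene. Their counts were nevertheless whole in both libraries. Cyp3a25 held 82.9% of the Cyp3a counts in AdipKO (78.3% to 86.9%) and 87.1% in WT (80.2% to 92.3%), and these intervals overlap.

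Over the 8 P450 genes together, 5752 counts in AdipKO stood against 1963 in WT, 2.93-fold higher (2.78 to 3.09). Cyp2c65 and Cyp2c66 made up 93.1% of them in AdipKO (92.4% to 93.7%) and 92.2% in WT (90.9% to 93.4%). The Cyp3a share was 5.49% in AdipKO (4.92% to 6.11%) and 6.72% in WT (5.66% to 7.92%). Each of these 2 shares had overlapping intervals in both libraries. Without Cyp2c65 and Cyp2c66, the other 6 genes had 399 counts in AdipKO, against 153 in WT, and were 2.61-fold higher (2.16 to 3.16).

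Nr1i3 (12355) encodes CAR, a receptor held in the cytoplasm until drugs such as phenobarbital send it to the nucleus. It had 117.24 counts in AdipKO, against 27.37 in WT, and was 4.28-fold higher (2.83 to 6.85), the highest ratio of the set among genes with counts in both libraries. The gene lies on chromosome 1 from 171213934 to 171218845, and 26.8% of its 100-base windows are also found, on the opposite strand, in transcripts of its neighbour Tomm40l, which encodes a mitochondrial outer membrane protein and was not listed. Whether the counting used strand was not given, so reads of both genes cannot be told apart here and the value of Nr1i3 is uncertain to that extent.

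Abcb1a (18671) encodes P-glycoprotein, which uses ATP to export drugs and toxins. It was the most counted gene of the set, with 9606.09 counts in AdipKO, against 3545.42 in WT, and was 2.71-fold higher (2.61 to 2.82). It ranked 11th of the listed genes in AdipKO and 32nd in WT. The gene spans chromosome 5 from 8567091 to 8748575, and its main transcript has 28 exons. Of its windows, 7.49% matched Abcb1b, the adjacent copy of the pump gene, which was not listed, and its counts were fractional.

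**Figure D2:**
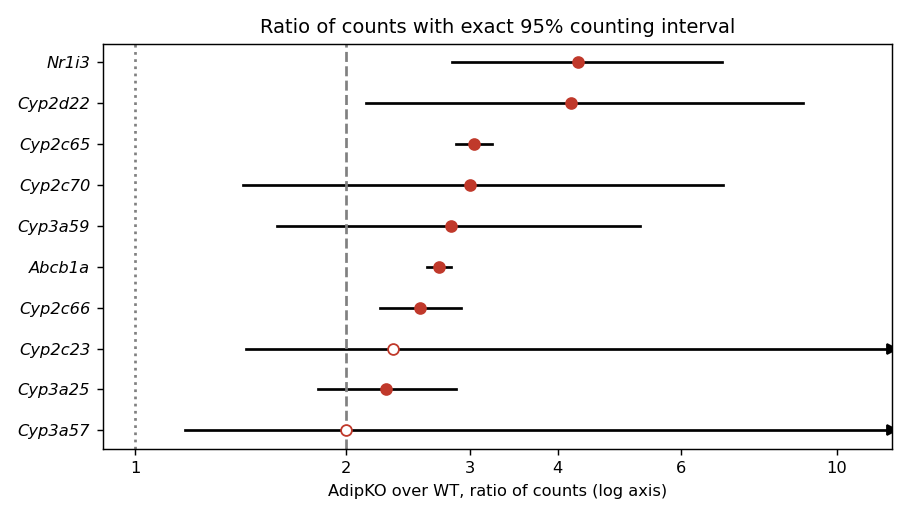
Ratio of AdipKO over WT counts for each gene on a log axis, with exact 95% intervals for counting error. Filled points are ratios, and open points are ratios with the WT count of 0 set to 3, which are not lower limits. Arrows mark intervals without an upper end, and the dashed line is at 2-fold. The intervals of Abcb1a, Cyp2c65 and Cyp2c66 are narrow and lie above 2, while those of Cyp2c70 (1.43 to 6.88), Cyp3a59 (1.59 to 5.24), Cyp3a25 (1.82 to 2.86), Cyp2c23 (from 1.44) and Cyp3a57 (from 1.18) cross it.

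The ratios were ordered from Nr1i3 through Cyp2d22, Cyp2c65, Cyp2c70, Cyp3a59, Abcb1a and Cyp2c66 to Cyp3a25, but neighbours in this order did not differ beyond counting error in any of 7 pairs. Of all 28 pairs of genes with counts in both libraries, 6 had an exact interval for the ratio of their folds that excluded 1. These were Nr1i3 over Abcb1a (1.58, 1.04 to 2.53), over Cyp2c66 (1.68, 1.09 to 2.75) and over Cyp3a25 (1.88, 1.17 to 3.18). The others were Cyp2c65 over Abcb1a (1.12, 1.05 to 1.21), over Cyp2c66 and over Cyp3a25 (1.34, 1.06 to 1.68). The intervals were not adjusted for the number of pairs.

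Levels were compared between genes per kilobase of the main GENCODE transcript. On this scale Cyp2c65 stood highest, with 2360 counts per kb in AdipKO and 775 in WT, followed by Abcb1a with 1922 in AdipKO and 710 in WT. Cyp2c66 had 492 counts per kb in AdipKO and 193 in WT. Cyp3a25 had 131 in AdipKO and 57.5 in WT, and Nr1i3 had 82.9 in AdipKO and 19.4 in WT. The other 5 genes had at most 24.1 counts per kb in AdipKO and at most 8.54 in WT, both in Cyp3a59.

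**Figure D3:**
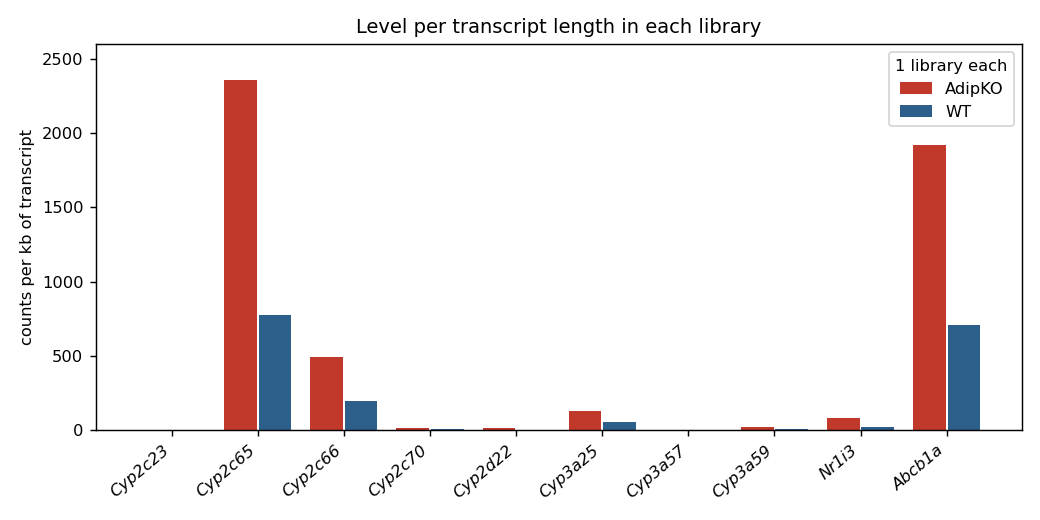
Deposited counts divided by the length of the main transcript in kilobases, for AdipKO (left bar, red) and WT (right bar, blue), 1 library each, with bars starting at 0. Cyp2c65 (2360 against 775 counts per kb) and Abcb1a (1922 against 710) stand above the other genes in both libraries.

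The wider pathway was read from lists written by name, with earlier results of these data known. Of 24 nuclear receptors and partners of xenobiotic and lipid sensing, 5 were listed and all 5 were at least 2-fold higher. Beside Nr1i3 these included Pparg, a receptor for fatty acids, with 1212 counts in AdipKO against 580 in WT, Hnf4g, an HNF4 of the gut, with 1124 against 507, and the bile acid receptor Nr1h4 with 580 against 224. Nr1i2, which encodes PXR, was not listed, nor was any retinoid X receptor gene. Of 36 genes known as targets of CAR or PXR, 14 were listed, 10 of them outside the set described here. All 10 were higher by sign and 9 of them at least 2-fold with the pseudocount, with a median log2 ratio of 1.35. Of all 1448 listed genes, 35.3% were at least 2-fold higher. The 10 include the glutathione S-transferases Gsta1, Gsta2, Gsta4, Gstm1 and Gstm3. Whether CAR, PXR or another regulator acted on the 10 was not tested. Ugt2b34, a glucuronosyltransferase, had 17795 counts in AdipKO, against 7913 in WT. Of 16 efflux pumps of the ABC family, 2 were listed, Abcb1a and the conjugate exporter Abcc2, which had 4550 counts in AdipKO, against 2210 in WT.

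The P450 genes outside the 3 subfamilies went both ways. Of 45 others in P450 families 1 to 4, 2 were listed. Cyp4f15 had 4 counts in AdipKO, against 31 in WT, and Cyp4f40 had 129, against 66. Of 22 P450 and related genes of steroid, bile acid and vitamin metabolism, 2 were listed as well. Cyp39a1, an oxysterol hydroxylase, had 560 counts in AdipKO, against 266 in WT, and Cyp11a1, the side-chain cleavage enzyme of steroid synthesis, had 61, against 189. None of 10 genes for P450 electron donors and haem supply was listed, the P450 reductase gene Por among them. Of 8 targets of the aryl hydrocarbon receptor, Nqo1 alone was listed, with 2385 counts in AdipKO against 425 in WT. Of 5 targets of the vitamin D receptor, S100g alone was listed, with 222 against 96.

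**Figure D4:**
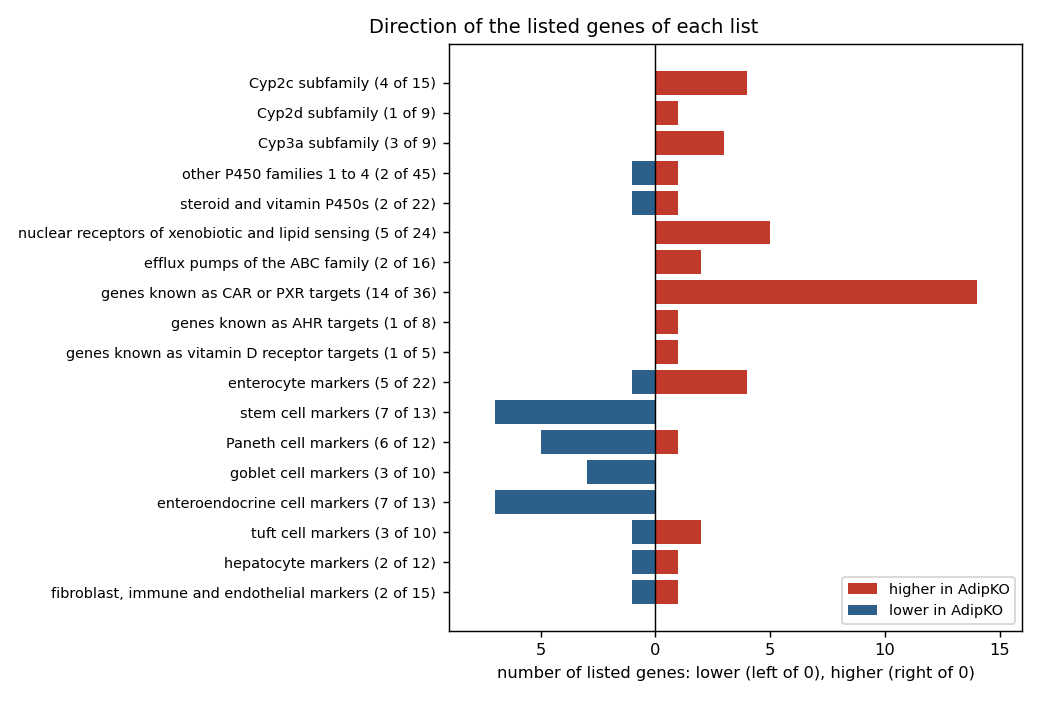
Number of listed genes of each list that were higher (red, right of 0) or lower (blue, left of 0) in AdipKO than in WT by the sign of the ratio, with the number listed of the number searched in brackets. The 3 P450 subfamilies, the nuclear receptors and the targets of CAR or PXR lie wholly to the right, and the stem, goblet and enteroendocrine markers wholly to the left. Over all 1448 listed genes, 547 were higher and 901 lower by sign.

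Among markers of gut cell types, the listed enterocyte markers mostly shared the direction of these genes. Listed stem, Paneth, goblet and enteroendocrine markers mostly or wholly went the other way. Of 22 enterocyte markers, 5 were listed, 4 were higher and Lct was lower, and their summed counts were 6290 in AdipKO and 2005 in WT. All 7 listed of 13 stem cell markers were lower, with summed counts of 41465 in AdipKO and 111814 in WT. That direction rests on the same labels and, for Lgr5 and Olfm4 among others, is opposite to the one the paper reports. Of 12 Paneth cell markers 6 were listed and 5 were lower, with 35827 in AdipKO and 67077 in WT. All 3 listed goblet markers of 10 and all 7 listed enteroendocrine markers of 13 were lower as well. Of all 1448 listed genes, 901 were lower and 547 higher by sign, so lower was the commoner direction at large. No marker list was tested against that share. Set beside Sis, the sucrase-isomaltase of the enterocyte brush border, the fold of Cyp2c65 was 0.945 times as large (0.868 to 1.03), that of Abcb1a 0.841 times (0.782 to 0.904) and that of Nr1i3 1.33 times (0.875 to 2.14). Beside Fabp1, which carries fatty acids in enterocytes, these values were 1.11 (0.919 to 1.34), 0.991 (0.823 to 1.19) and 1.57 (0.993 to 2.60). The fold of Cyp3a25 was 0.707 times that of Sis (0.561 to 0.896) and 0.833 times that of Fabp1 (0.623 to 1.12). The enterocyte markers differed widely among themselves, since the fold of Cyp2c65 was 0.472 times that of Enpep (0.328 to 0.664) and 13.3 times that of Lct (6.05 to 33.3). The part of enterocyte content in the xenobiotic genes was not tested. Of 12 hepatocyte markers 2 were listed, Alb higher with 155 counts in AdipKO against 55 in WT and Serpina1b lower, and of 15 fibroblast, immune and endothelial markers Vim was lower and Itgam higher. Of 10 tuft cell markers 3 were listed, 2 higher and 1 lower.

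Within 1 Mb of the P450 genes, listed neighbours went both ways, and those that shared the direction were in part of the same gene family. Around Cyp2c66 they were Cyp2c65 and Cyp2c70, of 24 annotated protein-coding genes in reach, with Gm41844 lower. Around Cyp3a59 they were Cyp3a57 and Cyp3a25, of 39 genes, and none was lower. Around Cyp3a25 2 listed genes were higher and 1 lower, of 40, and around Cyp3a57 2 were higher and 2 lower, of 33. Cyp2c23 had 2 higher and 3 lower neighbours, of 31, Cyp2c65 had 1 of each, of 24, Cyp2c70 had 1 higher, of 23, and Cyp2d22 had 1 lower, of 51. No other gene within 1 Mb of Abcb1a was listed, of 13, and around Nr1i3 2 listed genes were higher and 3 lower, of 56.

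With 2 libraries, likeness of pattern comes down to the ratio. Nearest to the log2 ratio of the summed counts of all 10 genes (1.48) were Nol3 (1.48), Mtm1 (1.48) and Gm11545 (1.47), among genes counted at least 100 times in 1 of the libraries. Of the listed genes with counts in both libraries, 2.98% had a ratio inside the counting interval of Cyp2c65 and 15.3% inside that of Nr1i3.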

How the data were processed

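RNA of small intestinal organoids was sequenced by the authors in paired-end mode (MGISEQ-2000, BGI), 1 library per genotype. The deposited values are estimated counts, with no scaling between libraries, and mm10 is the build named in the labels. Aligner, counter, annotation and strand setting are not given in the sources used here. Genes appear chosen by a fold change of about 2, which removes small differences.

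Tables were joined on gene ID with pandas 2.3.3 and left unscaled, since the library totals behind a selected table are not known. Ratios of counts, AdipKO over WT, were given exact (Clopper-Pearson) 95% intervals with SciPy 1.17.1 after rounding to whole counts. A WT count of 0 was set to 3 to give a ratio. Ratios of 2 folds were given conditional exact intervals. Calls used 2-fold with a pseudocount of 1 and at least 1 count in the higher library. Intervals cover counting error only, because there was 1 library per genotype. Reads are not independent molecules, so the intervals may be too narrow even for counting error. Windows of 100 bases and transcript lengths came from the first-numbered GENCODE M21 transcripts, found for all 10 genes, and alignments were made with Biopython 1.88. RefSeq held promoters for 8 of the 10 genes. The interval script was tested on simulated counts.

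The genes, lists and alternatives were chosen with earlier results of these data known. Named genes were all 10 members, at most 3 listed genes per list with the most counts, and the 3 nearest in ratio. Enpep, Lct, Gm41844, Tnfrsf19, Mycl, Ascl2, Gsta1, Gsta2, Gstm3 and genes named as sharing sequence fall outside that rule. Their values were known when they were named. Alternatives covered the pseudocount, the scaling, the minimum count, the fold threshold, fractional counts and the summary of a subfamily. The value of 1 enterocyte marker is not reported here.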

Additional observations from a re-analysis of the deposited data

How the results depend on the processing

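The alternatives gave 118 values, of which 9 moved beyond counting error or a 1.5-fold count and 0 changed sign. A change of sign was not open to them, since a pseudocount cannot reverse a ratio and the scalings raised the ratios. Cyp2c23 and Cyp3a57 have intervals without an upper end, so a rise could not count as moved. With pseudocounts of 0.1 and 5 the log2 ratio was 6.15 and 1.26 for Cyp2c23. For Cyp3a57 it was 5.93 and 1.14. All 10 genes were at least 2-fold higher, and so were all 5 that remained with at least 50 counts required. At a 4-fold threshold 3 were higher, namely Nr1i3, Cyp2c23 and Cyp3a57. Cyp2c23 and Cyp3a57 pass only through the pseudocount over a WT count of 0. With that 0 set to 3 they are 2.33-fold and 2-fold higher, and their exact intervals start at 1.44 and 1.18. Cyp2d22, at 4.18-fold without the pseudocount, has a log2 ratio of 1.97 with it and was not counted. All 6 genes with whole-number counts were at least 2-fold higher. For the limits of 50 counts and of whole numbers, the share over all listed genes was not computed. At a 4-fold threshold 144 of all listed genes stood higher and 197 lower. Equal totals over the listed genes raised the log2 ratios of the 8 genes with counts in both libraries by up to 0.22, left Cyp2c23 and Cyp3a57 where they were, and gave 3.16-fold for Abcb1a and 3.45-fold for Cyp2c, and 45.6% of all calls were then higher, against 36.2% unscaled. With whole-number genes only, Cyp2c rested on Cyp2c70 and Cyp2c23 and was 3.70-fold higher. The other 3 values that moved were log2 ratios of single genes with equal totals, 1.66 for Abcb1a, 1.83 for Cyp2c65 and 1.57 for Cyp2c66. Setting the WT count of the 2 genes at 0 to 3, without a pseudocount for any gene, gave a median log2 ratio of 1.47 in place of 1.55. Nr1i3 and Abcb1a have fractional counts and gave no value with whole-number counts only, and Cyp2d22 gave none with at least 50 counts. The depth of each library is unknown, so levels rest on counts as deposited. No paired analysis was possible because there was 1 library per genotype, and for the same reason no library could be left out.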
